A study of Mus musculus with 115 samples.

Results

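Wnt proteins are secreted, lipid-carrying signals that bind Frizzled receptors on the surface of nearby cells. The genes described here are the Wnt ligands, the Frizzled (Fzd) receptors, the co-receptors Lrp5 and Lrp6, the secreted Dickkopf (Dkk) antagonists and the feedback genes Axin2, Rnf43 and Apcdd1. They were chosen by symbol: Wnt, Fzd or Dkk followed by a digit, plus those 5 genes by name, each read by the probe set with the highest mean. The rule gave 39 of the 18772 genes with a probe set of a single symbol, namely 19 Wnt, 11 Fzd and 4 Dkk symbols and the 5 named genes, and each had 1 probe set. One of the Fzd symbols, Fzd10os, is a transcript antisense to Fzd10 and encodes no receptor.

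Expression was measured with 1 Affymetrix array per mouse in mammary fat pads of 115 untreated females aged 8 weeks. All were offspring of hybrids of the FVB/N strain and the Mus spretus strain Spret/Ei, backcrossed to FVB/N, so that every mouse had a genotype of its own. By the labels the mice fall into lymph clusters 3 (10 mice), 2 (61 mice) and 1 (44 mice), with no word on how the clusters were made. The labels also place 22 arrays on plate 2 and 93 on plate 1. Each mouse was a separate animal, and no group carried a treatment, transgene or deletion.

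When a Wnt protein binds a Frizzled and Lrp5 or Lrp6 together, beta-catenin escapes destruction, enters the nucleus and activates genes with TCF and LEF factors. Other Frizzled signals work without beta-catenin and shape cell polarity and movement. Brakes act at several points: Dickkopf proteins block Lrp5 and Lrp6, Rnf43 removes Frizzleds from the membrane, Apcdd1 binds Wnt at the cell surface and Axin2 helps to destroy beta-catenin. In the mammary gland these signals guide bud formation, duct growth and side branching, and in the fat around the ducts they hold back the formation of adipocytes.

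RefSeq promoter sequences (build GRCm38.p6, the 250 bases before each start) were matched to 25 of the 39 genes, at 29 starts. The promoters of Rnf43, Wnt5b and Fzd4 are shown because the first 2 of these genes rose and fell together across mice and Fzd4 ran opposite to both. Each is written from 5′ to 3′, and for a gene with several starts the one with the most motif matches is given. Rnf43 lies at chr11:87699647-87699896 on the plus strand, Wnt5b at chr6:119449387-119449636 on the minus strand and Fzd4 at chr7:89404116-89404365 on the plus strand. Rnf43 has 2 starts in the table, Wnt5b 3 and Fzd4 1. The starts shown for Rnf43 and Wnt5b lie inside the listed spans of the genes, 87663087 to 87735539 and 119432531 to 119544824. That of Fzd4 is at the 5′ end of its span.
Rnf43: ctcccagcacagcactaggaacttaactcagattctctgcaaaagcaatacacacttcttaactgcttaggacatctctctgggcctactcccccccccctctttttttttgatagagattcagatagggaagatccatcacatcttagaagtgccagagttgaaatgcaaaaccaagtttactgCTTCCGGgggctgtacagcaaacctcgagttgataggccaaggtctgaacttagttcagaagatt
Wnt5b: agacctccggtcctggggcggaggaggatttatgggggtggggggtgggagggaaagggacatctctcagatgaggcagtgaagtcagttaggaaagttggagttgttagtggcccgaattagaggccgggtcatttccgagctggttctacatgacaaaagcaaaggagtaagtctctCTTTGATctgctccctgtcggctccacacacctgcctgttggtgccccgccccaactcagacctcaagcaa
Fzd4: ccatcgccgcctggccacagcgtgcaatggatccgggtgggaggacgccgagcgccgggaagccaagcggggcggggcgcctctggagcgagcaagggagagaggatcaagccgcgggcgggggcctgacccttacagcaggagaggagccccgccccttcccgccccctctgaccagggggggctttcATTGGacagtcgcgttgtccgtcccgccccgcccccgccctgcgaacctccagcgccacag
Capitals mark the matches to 3 motifs searched on both strands. CTTTGAT, the TCF and LEF core, stood once in the Wnt5b promoter, in the orientation of the gene, starting 71 bases before the start. CCGGAAG, an ETS factor core, stood once in the Rnf43 promoter on the opposite strand, and CCAAT, the core of the CCAAT box, once in the Fzd4 promoter on the opposite strand. No 2 matches overlapped. Of all 32851 promoters in the table, 3.21% held CTTTGAT, 6.91% CCGGAAG and 33.8% CCAAT, against 2, 2 and 10 of the 29 starts of these genes. The sequences shown held 45.2% G and C in Rnf43 and 55.6% in Wnt5b, both at starts inside the gene, and 72.8% in Fzd4. The median was 69.2% over the 29 starts against 52.4% over the table. A match describes these letters and is not evidence of a bound factor.

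The 39 genes varied between mice about as much as other probe sets did. Their median SD was 0.2415 on the log2 scale, against 0.2385 over all 28204 probe sets, and 20 of the 39 were above the latter. By SD Rnf43 varied the most, from 5.204 through a median of 6.096 to 7.546 (SD 0.502, n = 115). Apcdd1 ran from 8.717 through 10.305 to 11.328 (SD 0.496), Wnt2 from 5.228 through 6.633 to 7.688 (SD 0.492), Wnt5a from 6.543 through 7.967 to 9.311 (SD 0.485), and Fzd4 from 9.449 through 10.712 to 11.475 (SD 0.431). Wnt5b ran from 5.456 through 6.431 to 7.483, Wnt4 from 5.322 through 6.189 to 7.681, Fzd6 from 6.580 through 7.287 to 8.555 and Fzd7 from 7.008 through 7.681 to 8.688. At the other end, Wnt8a stayed between 4.160 and 4.969 (SD 0.158) and Lrp6 between 9.182 and 9.977 (SD 0.169). These ranges describe differences between mice for 1 gene at a time, because signals of different probe sets are not on a common scale. The plot of values by gene shows the long upper tails of Rnf43, Wnt4 and Wnt3 and the long lower tails of Apcdd1 and Fzd1.

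**Figure D1:**
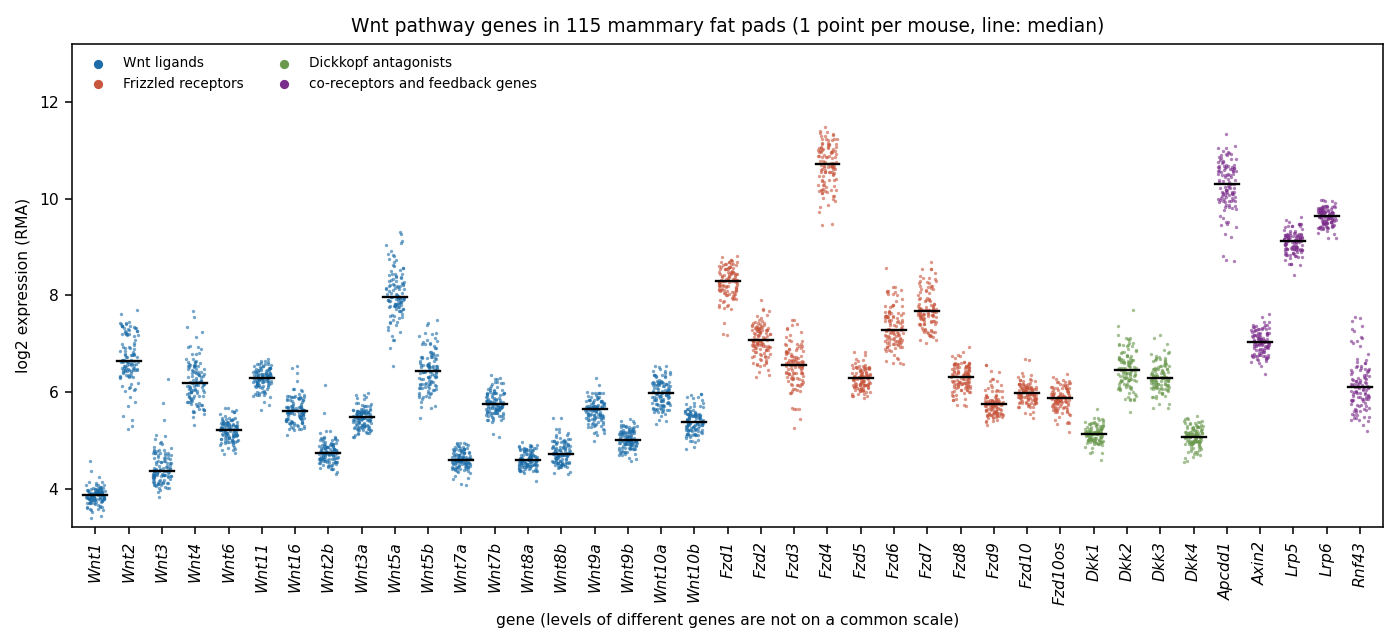
Log2 expression (y axis) of each of the 39 genes (x axis) in 115 mice, 1 point per mouse with a line at the median, coloured by family. Rnf43 spread from 5.204 to 7.546 and Apcdd1 from 8.717 to 11.328, while Lrp6 stayed between 9.182 and 9.977.

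A fat pad holds adipocytes, mammary ducts, fibroblasts, vessels and often some muscle, and their markers differed between mice. The mean of 18 luminal epithelium markers, each centred on its own mean, ran from −1.93 to 1.66, that of 17 white adipocyte markers from −0.944 to 0.428, that of 11 fibroblast and matrix markers from −1.12 to 0.492, and that of 10 skeletal muscle markers from −2.32 to 5.46. In 6 mice the luminal mean lay between −1.93 and −1.69 and the next mouse was at −1.07, and 31 mice had a muscle mean above 1. In bulk tissue, fewer cells of a type and less RNA per cell cannot be told apart. The white adipocyte mean rose by 0.720 per log2 unit of Hipk2 (SE 0.0410) and fell by 0.201 per unit of the luminal mean (SE 0.0342), and the luminal mean fell by 0.678 per unit of Hipk2 (SE 0.183), so these measures are not independent of each other. The blood endothelium mean rose by 0.540 per unit of Hipk2 (SE 0.0597) and the fibroblast and matrix mean by 0.279 (SE 0.0748), while the T cell mean fell by 0.667 (SE 0.152). The part of each cell type in the slopes on Hipk2 was not tested apart from the models that hold a marker mean.

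The title of the series names Hipk2, a nuclear serine/threonine kinase reported to act in Wnt signalling, and the mice ranged from 9.83 to 11.49 in its log2 value. The first question was which Wnt pathway genes followed Hipk2 across mice. Values are slopes: the difference in log2 expression that goes with a Hipk2 value 1 log2 unit higher, with lymph cluster and plate in the model, and a call is a limma adjusted p under 0.05 over all probe sets. With Hipk2, 9 of the 39 genes rose and 6 fell. Of all probe sets tested, 18.5% rose and 17.2% fell, so the 23.1% and 15.4% of these genes were near the background, and the median slope was −0.02 against −0.01 over all probe sets. The balance depended on the model: 7 rose and 8 fell with array weights, 11 rose and 3 fell with the luminal mean held, and 5 rose and 10 fell with the fibroblast and matrix mean held. In these fits 36.9%, 33.7% and 33.5% of all probe sets were called in either direction.

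Among the ligands, Wnt4, a mammary duct signal that acts downstream of progesterone in mice, fell by 0.42 per unit of Hipk2 (SE 0.110, adjusted p = 0.00123). Wnt5b fell by 0.42 as well (SE 0.102, adjusted p = 4.65e-04), Wnt10a by 0.36 (SE 0.0653, adjusted p = 3.31e-06) and Wnt6 by 0.16 (SE 0.0529, adjusted p = 0.00982). Wnt10b, which restrains the formation of adipocytes, rose by 0.16 (SE 0.0631, adjusted p = 0.0422), and Wnt5a, which restrains duct growth in mice, rose by 0.32 (SE 0.128, adjusted p = 0.0379). The 6 called ligands therefore split 2 to 4, and the other 13 did not pass the test. Wnt4, Wnt10a, Wnt10b and Wnt6 had mean log2 values of 6.23, 5.98, 5.40 and 5.20, below the median of 6.32 over all probe sets. Wnt5a and Wnt5b, at 8.03 and 6.45, lay above it. Of all 39 genes 14 lay above it, and the part of low signal in the calls was not tested. Wnt5a and Wnt10b had adjusted p of 0.118 and 0.0798 once the 31 mice with the high muscle mean were left out. In that fit 6 of the 39 genes were called higher and 6 lower, against 35.2% of all probe sets.

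The receptors split along other lines. Fzd4, which also binds the non-Wnt ligand Norrin in blood vessels, rose by 0.96 (SE 0.0746, adjusted p = 3.13e-21), Fzd8 by 0.49 (SE 0.04995, adjusted p = 5.91e-15), Fzd1 by 0.33 (SE 0.0776, adjusted p = 2.41e-04) and Fzd5 by 0.15 (SE 0.0536, adjusted p = 0.0177). Fzd7 fell by 0.24 (SE 0.0981, adjusted p = 0.0494) and is the weakest of the calls: without the 6 mice of low luminal mean its adjusted p was 0.0638, and without the 31 mice of high muscle mean it was 0.334. Fzd5 had an adjusted p of 0.0637 without the latter mice. Both co-receptors rose, Lrp5 by 0.28 (SE 0.0534, adjusted p = 5.52e-06) and Lrp6 by 0.22 (SE 0.0421, adjusted p = 1.09e-05).

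The feedback genes moved in opposite directions. Apcdd1 rose by 0.96 (SE 0.0991, adjusted p = 9.19e-15) and Rnf43 fell by 0.72 (SE 0.117, adjusted p = 1.61e-07). Axin2, the widely used readout of beta-catenin activity, had a slope of −0.12 that did not pass the test. No Dickkopf gene passed it either: the slopes of Dkk1, Dkk2, Dkk3 and Dkk4 lay between −0.17 and 0.13.

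Fzd4 was called on each plate and in each of the larger clusters, and Rnf43 in all but plate 2. The slope of Fzd4 was 0.83 on plate 2 (SE 0.156) and 0.99 on plate 1 (SE 0.0862). Within clusters it was 0.97 in cluster 2 (SE 0.107) and 0.94 in cluster 1 (SE 0.103). For Rnf43 it was −0.38 on plate 2 (SE 0.215), where it did not pass the test, and −0.85 on plate 1 (SE 0.138). The counts of called genes were 4 on plate 2, and 9 each in cluster 2 and cluster 1. Of all probe sets 3.26% were called on plate 2, 31.3% in cluster 2 and 17.3% in cluster 1. Whether the slope itself differed was tested between the mice of clusters 2 and 1. None of the 39 genes was called by limma, 1 (Lrp5) had an unadjusted p under 0.05, and 4.62% of all probe sets were called. The slope of Lrp5 was 0.29 higher in cluster 2 than in cluster 1 (SE 0.112, adjusted p = 0.119), and with each array centred on its median its adjusted p was 0.0457.

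**Figure D2:**
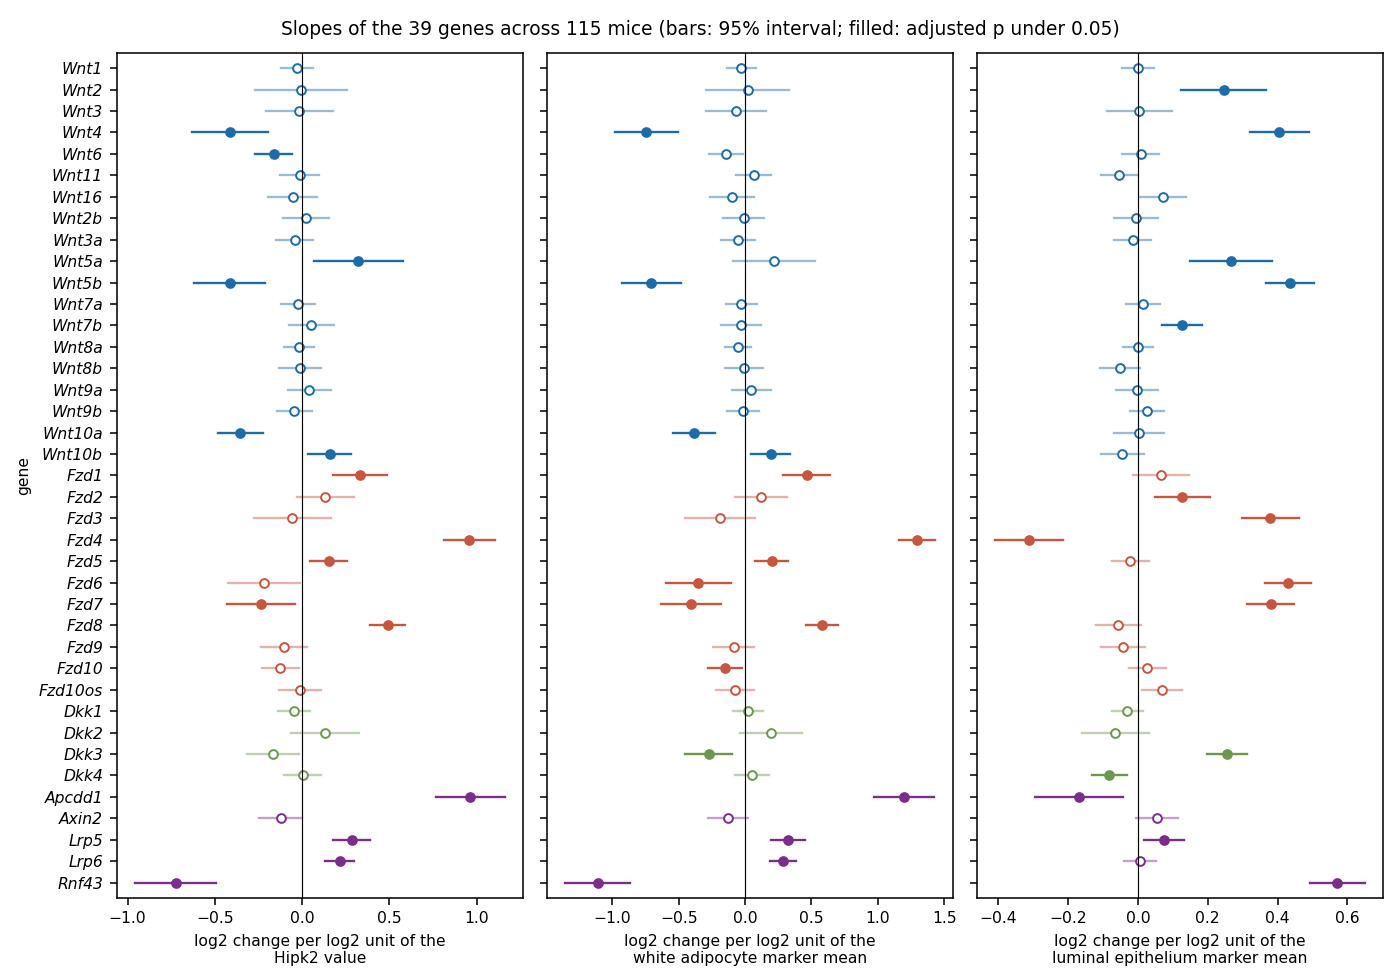
Slopes of the 39 genes on Hipk2, on the white adipocyte marker mean and on the luminal epithelium marker mean (x axes, log2 change per log2 unit), with 95% intervals over 115 mice. Filled points have an adjusted p under 0.05. Fzd4 and Apcdd1 lie right of 0 in the left and middle panels and left of 0 in the right panel, and Rnf43, Wnt4 and Wnt5b lie on the other side.

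The next question was whether the genes followed Hipk2 among mice of equal marker means. With the white adipocyte and luminal epithelium means both in the model, limma called none of the 39 genes for the slope on Hipk2, against 7.52% of all probe sets. At an unadjusted p under 0.05 there were 3, Dkk1 with a slope of −0.22 (SE 0.0900), Fzd8 with 0.23 (SE 0.0944) and Wnt6 with −0.22 (SE 0.105), with adjusted p of 0.118, 0.132 and 0.216. The slope of Fzd4 was 0.15 (95% interval −0.0688 to 0.372), that of Apcdd1 0.33 (−0.0352 to 0.701) and that of Wnt4 0.24 (−0.0857 to 0.572). On plate 1 alone Wnt6 and Wnt11 were called lower, with slopes of −0.41 (adjusted p = 0.0228) and −0.37 (adjusted p = 0.0365). Holding the white adipocyte mean alone also left none called by limma, against 8.1% of all probe sets, with 9 of the genes at an unadjusted p under 0.05. The slopes on Hipk2 of Wnt4 (0.46, SE 0.192), Wnt5b (0.35, SE 0.180), Rnf43 (0.28, SE 0.201) and Fzd7 (0.21, SE 0.186) were then positive, opposite in sign to those without the marker mean, and that of Fzd1 was −0.0099 (SE 0.147). Holding the luminal mean alone left 14 called, against 33.7% of all probe sets. Of these 14, 11 were among the first 15, and the slope of Fzd7 was 0.025 there. Since the adipocyte mean and Hipk2 ran together, the intervals here are wide, and they do not show that the genes are unrelated to Hipk2.

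Set against the white adipocyte mean, 8 of the 39 genes rose and 8 fell, against 20.8% and 20.6% of all probe sets. Fzd4 had the steepest slope, 1.29 log2 units per unit of the mean (SE 0.0682, adjusted p = 4.60e-34). Apcdd1 rose by 1.198 (SE 0.114, adjusted p = 7.96e-17), Fzd8 by 0.58 (SE 0.0598), Fzd1 by 0.47 (SE 0.0897), Lrp5 by 0.32 (SE 0.0643), Lrp6 by 0.29 (SE 0.0488), Fzd5 by 0.20 (SE 0.0634) and Wnt10b by 0.19 (SE 0.0751). Receptors stood on both sides, with Fzd7, Fzd6 and Fzd10 among the genes that fell. Rnf43 fell by 1.11 (SE 0.124, adjusted p = 1.96e-13), Wnt4 by 0.75 (SE 0.120, adjusted p = 9.45e-08), Wnt5b by 0.71 (SE 0.112, adjusted p = 5.91e-08), Fzd7 by 0.40 (SE 0.114), Wnt10a by 0.38 (SE 0.0797), Fzd6 by 0.35 (SE 0.123), Dkk3 by 0.28 (SE 0.0881) and Fzd10 by 0.15 (SE 0.0638).

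With the luminal mean also held, the falling group changed. Rnf43, Wnt4, Wnt5b and Wnt10a were still called lower, by 0.57, 0.35, 0.25 and 0.50 per unit of the adipocyte mean, while the slopes of Fzd7 (0.06), Fzd6 (0.20) and Dkk3 (0.03) changed sign and were not called. Wnt5a, Fzd2, Fzd3 and Wnt2 were then called higher, with slopes of 0.70, 0.36, 0.34 and 0.41. Fzd4 stood at 1.21 (SE 0.0768) and Apcdd1 at 1.31 (SE 0.129).

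Set against the luminal epithelium mean, 12 of the 39 genes rose and 3 fell. Over all probe sets 12.7% rose and 15.3% fell, against 30.8% and 7.69% of these genes, and the median slope was 0.01 against −0.02. With each array centred on its median the split was 11 to 9, and with quantile normalization repeated it was 11 to 5. In these fits 41.3% and 29.7% of all probe sets were called in either direction, against 27.9% in the reported fit. The balance of rising and falling calls thus depended on the scaling.

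The ligands that rose with the luminal mean were Wnt5b, by 0.44 (SE 0.0344, adjusted p = 3.74e-21), Wnt4, by 0.41 (SE 0.0427, adjusted p = 3.55e-14), Wnt5a, by 0.27 (SE 0.0592, adjusted p = 2.10e-04), Wnt2, by 0.25 (SE 0.0610, adjusted p = 9.17e-04), and Wnt7b, by 0.13 (SE 0.0291, adjusted p = 3.47e-04). Of the receptors, Fzd6 rose by 0.43 (SE 0.0334, adjusted p = 1.51e-21), Fzd7 by 0.38 (SE 0.0340, adjusted p = 6.07e-18), Fzd3 by 0.38 (SE 0.0414, adjusted p = 1.82e-13), Fzd2 by 0.13 (SE 0.0392) and the co-receptor Lrp5 by 0.07 (SE 0.0284). Rnf43 had the steepest slope, 0.57 (SE 0.0394, adjusted p = 3.93e-25), and Dkk3, the divergent Dickkopf that does not block Lrp6 as Dkk1 does, rose by 0.25 (SE 0.0292, adjusted p = 1.78e-12). The genes that fell were Fzd4, by 0.31 (SE 0.0492, adjusted p = 1.46e-07), Apcdd1, by 0.17 (SE 0.0638, adjusted p = 0.0355), and Dkk4, by 0.08 (SE 0.0255, adjusted p = 0.00967).

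Leaving out the 6 mice of low luminal mean gave 11 higher and 3 lower, 13 of them among the first 15, against 24.5% of all probe sets. Lrp5 and Dkk4 then had adjusted p of 0.348 and 0.165, and the fall of Apcdd1 steepened to 0.41 (SE 0.0697). With the adipocyte mean held, 15 were called higher and 2 lower, against 18.8% of all probe sets called in either direction. Apcdd1 then had a slope of 0.09 (adjusted p = 0.220), opposite in sign, and Fzd4 one of −0.07, and Lrp5 rose by 0.18 (SE 0.0250). The basal epithelium marker mean rose by 0.701 per unit of the luminal mean (SE 0.0745). With the basal mean held, 9 were called higher and 5 lower, against 23.9% of all probe sets called in either direction. Rnf43 (0.53), Wnt5b (0.43), Wnt5a (0.37), Wnt4 (0.32), Fzd7 (0.27), Fzd6 (0.27), Fzd3 (0.26) and Dkk3 (0.19) were still called higher, as was Fzd10os (0.10), while Wnt2, Wnt7b, Fzd2 and Lrp5 were not. The lower calls were Fzd4 (−0.34), Apcdd1 (−0.28), Wnt3 (−0.26), Dkk2 (−0.17) and Fzd8 (−0.11). On plate 2 alone 5 genes were called, all higher, where 2.41% of all probe sets were called.

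A slope on the fibroblast and matrix mean was added after the marker correlations of these genes had been seen. By it 13 of the 39 genes rose and 2 fell, against 15% and 11.9% of all probe sets. Wnt2, a ligand made by stromal cells in the mammary gland of mice, rose by 1.23 (SE 0.111, adjusted p = 2.55e-17), Apcdd1 by 0.98 (SE 0.132, adjusted p = 1.29e-09), Fzd2 by 0.77 (SE 0.0696, adjusted p = 2.15e-17), Fzd1 by 0.76 (SE 0.0707, adjusted p = 1.12e-16) and Fzd3 by 0.58 (SE 0.122, adjusted p = 8.14e-05). Dkk2, not called for the adipocyte, luminal or muscle mean taken singly, rose by 0.34 (SE 0.115, adjusted p = 0.0178). Its r was 0.269 with this mean and 0.355 with the mean of 6 macrophage markers. With the macrophage mean Wnt2, Apcdd1, Fzd2 and Fzd1 had r of 0.567, 0.568, 0.517 and 0.554. With the fibroblast and matrix mean they had 0.721, 0.568, 0.723 and 0.705. No slope on the macrophage mean was fitted. Wnt10a fell by 0.28 (SE 0.0839, adjusted p = 0.00637) and Fzd9 by 0.25 (SE 0.0759, adjusted p = 0.00909), but the slope of Fzd9 was 0.02 without the 31 mice of high muscle mean. The slopes of Wnt2, Fzd2 and Apcdd1 were 0.96, 0.66 and 0.63 on plate 2 and 1.35, 0.84 and 1.16 on plate 1. On the skeletal muscle mean, also added later, Fzd9, Fzd7 and Wnt9a rose by 0.06 (SE 0.0110, adjusted p = 2.39e-05), 0.07 (SE 0.0176, adjusted p = 0.00604) and 0.03 (SE 0.0111, adjusted p = 0.0335), and 9.45% of all probe sets were called. In cluster 2 alone none of the 39 genes was called by limma on the muscle mean, with 4 at an unadjusted p under 0.05, and 2.86% of all probe sets were called. The fibroblast and matrix mean had r of 0.390 with the white adipocyte mean and 0.106 with the luminal mean. For the skeletal muscle mean these were −0.054 and 0.013. The separate parts of the tissues in these slopes were not tested.

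**Figure D3:**
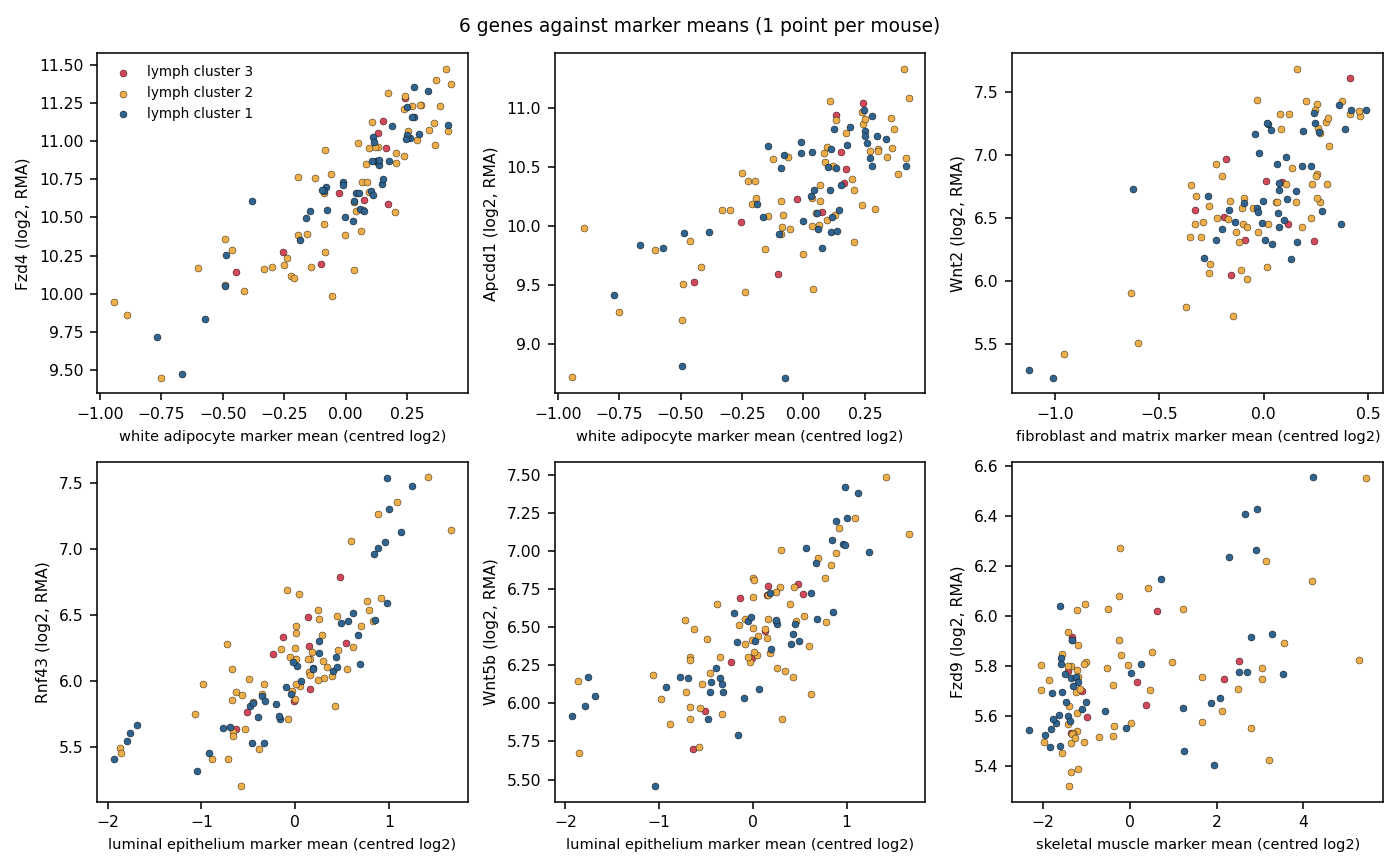
Log2 expression of 6 genes (y axes) against the mean of a marker list (x axes, centred log2), 1 point per mouse, coloured by lymph cluster. Fzd4 and Apcdd1 rise with the white adipocyte mean (slopes of 1.29 and 1.198), Wnt2 with the fibroblast and matrix mean (1.23), Rnf43 and Wnt5b with the luminal epithelium mean (0.57 and 0.44), and the points of the 3 clusters are mixed throughout.

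How the genes varied together was asked next. Of the 741 pairs, 193 had a correlation with an adjusted permutation p under 0.05, 164 positive and 29 negative, with 100000 two-sided permutations and adjustment over the pairs. The smallest size of r called was 0.230. Among all pairs of the 18772 genes, 13.7% had a positive and 9.48% a negative r of at least that size. Among pairs of Frizzled symbols 19 of 55 were called positive and 3 negative, among pairs of Wnt ligands 44 of 171 and 4, and among pairs of Dickkopf genes none of 6. Wnt8a had no called partner and Fzd2 had the most, 18 positive and 1 negative. The pairs share the same arrays and the same marker differences between mice. With cluster, plate and both the white adipocyte and luminal epithelium means removed, 117 pairs were called, 111 positive and 6 negative. The shares over all pairs of genes were not computed on values corrected in this way, so this split has no background beside it.

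The highest correlation was that of Rnf43 with Wnt5b, r = 0.817 (rho = 0.786, adjusted p = 1.45e-04). The permutation p was 1e-05, the smallest that these permutations can give, as it was for the other high and low pairs except Fzd8 with Wnt10a. Without the 2 mice farthest from the median of Rnf43 it was 0.792, and it stood at 0.731, 0.746 and 0.901 in clusters 3, 2 and 1, at 0.750 on plate 2 and 0.850 on plate 1, and at 0.516 with the marker means removed. Fzd6 and Fzd7 had r = 0.743 (rho = 0.707, 0.719 without 2 mice), with 0.555 on plate 2 and 0.784 on plate 1, and 0.410 with the marker means removed. Fzd2 and Wnt2, receptor and ligand, had r = 0.735 (rho = 0.712, 0.717 without 2 mice), with 0.814 on plate 2 and 0.716 on plate 1, and 0.687 with the marker means removed. The fibroblast and matrix mean, on which both genes rose, was not among the means removed. The brake Apcdd1 and the receptor Fzd4 had r = 0.732 (rho = 0.760, 0.755 without 2 mice), with 0.744 on plate 2 and 0.732 on plate 1, and 0.382 with the marker means removed. Fzd7 and Wnt5b had r = 0.712 (rho = 0.677, 0.688 without 2 mice), with 0.588 on plate 2 and 0.754 on plate 1. In the 10 mice of cluster 3 that last value was 0.059.

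Fzd4 entered 3 of the 5 lowest correlations. With Rnf43 it had r = −0.637 (rho = −0.642, −0.631 without 2 mice), and −0.702 on plate 2 and −0.625 on plate 1. With Wnt4 it had r = −0.504 (rho = −0.505, −0.497 without 2 mice), and −0.401 on plate 2 and −0.539 on plate 1, and with Wnt5b r = −0.491 (rho = −0.446, −0.467 without 2 mice), and −0.528 on plate 2 and −0.485 on plate 1. With the marker means removed these became −0.073, −0.048 and 0.037, and none was called. Apcdd1 and Wnt4 had r = −0.435 (rho = −0.436, −0.392 without 2 mice), and −0.455 on plate 2 and −0.432 on plate 1. With the marker means removed this pair had r = −0.272 and was still called (adjusted permutation p = 0.02565). Fzd8 and Wnt10a had r = −0.416 (rho = −0.407, −0.418 without 2 mice, adjusted p = 3.53e-04), and −0.377 on plate 2 and −0.434 on plate 1. With the marker means removed the latter pair had r = −0.150 and was not called. In cluster 3 the values for Fzd4 with Wnt4 and Apcdd1 with Wnt4 were 0.101 and 0.260, against −0.481 and −0.423 in cluster 2 and −0.658 and −0.577 in cluster 1.

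**Figure D4:**
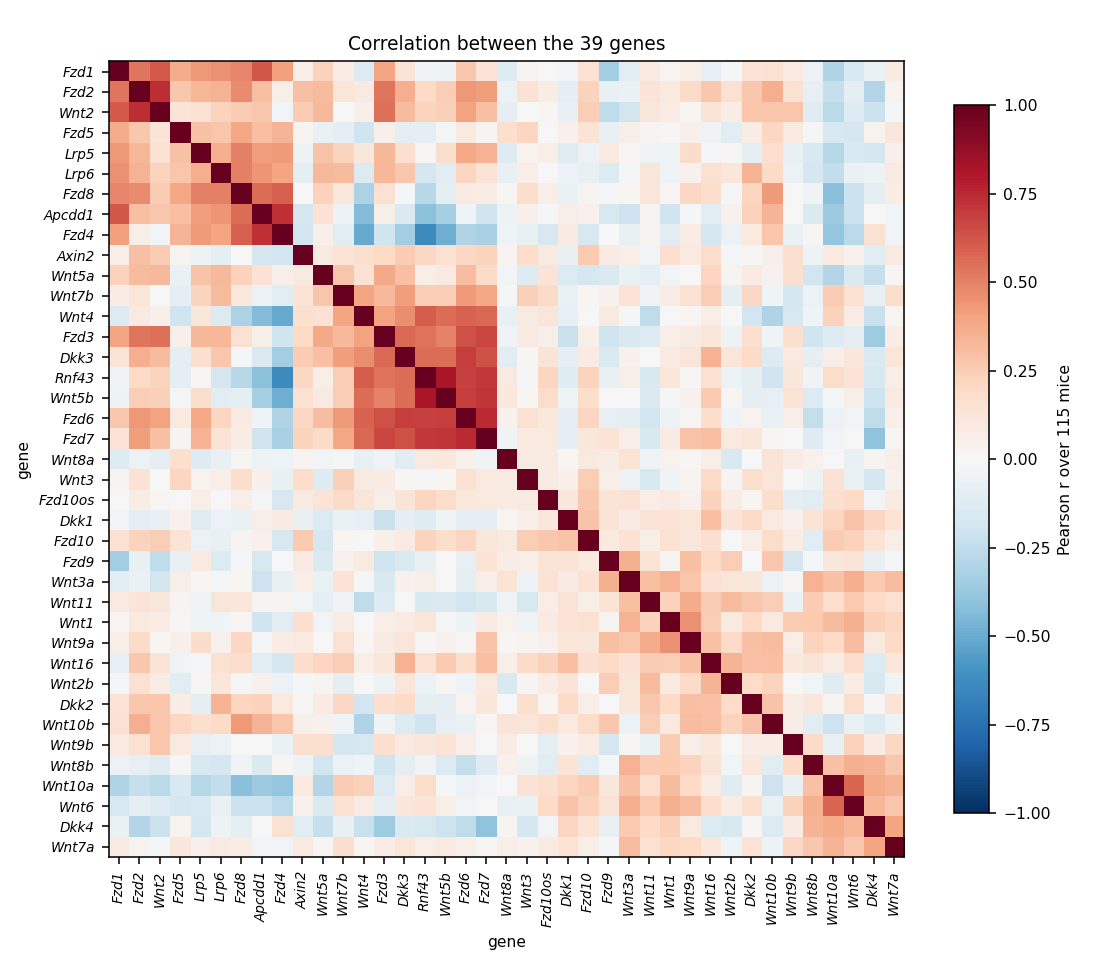
Pearson r over 115 mice between each pair of the 39 genes (both axes), ordered by similarity; red is positive and blue is negative. Wnt4, Fzd3, Dkk3, Rnf43, Wnt5b, Fzd6 and Fzd7 form 1 red block and Fzd1, Fzd8, Lrp5, Lrp6, Apcdd1 and Fzd4 another, with Fzd4 and Rnf43 at −0.637.

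Several Wnt genes lie side by side in the mouse genome, and 5 pairs of these genes are within 100 kb of each other in the RefSeq table. Wnt10a and Wnt6, 6.70 kb apart, had r = 0.583 (rho = 0.580, adjusted p = 1.45e-04, 0.570 without 2 mice), with 0.442 on plate 2, 0.619 on plate 1 and 0.552 with the marker means removed. Wnt3a and Wnt9a, 16.1 kb apart, had r = 0.278 (rho = 0.277, adjusted p = 0.0138, 0.225 without 2 mice), with 0.529 on plate 2 and 0.171 on plate 1. Fzd10 and its antisense neighbour Fzd10os, 0.419 kb apart, had r = 0.273 (rho = 0.217, adjusted p = 0.0162, 0.259 without 2 mice), with 0.643 on plate 2 and 0.116 on plate 1, and the adjusted p of rho was 0.0729. No test of a difference between the plates was run for these pairs. Wnt1 and Wnt10b, 11.7 kb apart, had r = 0.098 (rho = 0.079, adjusted p = 0.5001, 0.070 without 2 mice, 0.295 on plate 2 and 0.00363 on plate 1), and Wnt3 and Wnt9b, whose listed spans overlap, had r = 0.004 (rho = 0.017, adjusted p = 0.980, −0.057 without 2 mice, −0.344 on plate 2 and 0.0786 on plate 1). Of the 5 neighbouring pairs 3 were called by r and 2 also by rho, and 26% of the 741 pairs were called by r.

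At an autosomal locus a mouse of this cross can have a single Mus spretus allele or none, so a strong local effect on a transcript would give 2 levels. Expression was searched for 2 levels by mixture models, with a gain in the Bayesian information criterion (BIC) over 10 and at least 25% of mice at the rarer level. None of the 39 genes met this, against 0.688% of all probe sets, a description without a p-value. With a share of 10% or more, 1 did, Rnf43, against 2.49% of all probe sets. Its gain was 10.3 with 11.5% of mice at the rarer level and 1.14 log2 units between the levels. These values were corrected for cluster and plate only, and Rnf43 had r = 0.808 with the luminal mean. The 10% share was not tried on values corrected for marker means, and the part of genotype was not tested. Fzd9 came next with a gain of 9.90 at a share of 11.8%.

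The lymph clusters did not separate these genes. Fzd4 ran from 10.144 through a median of 10.636 to 11.286 in cluster 3, from 9.449 through 10.734 to 11.475 in cluster 2 and from 9.474 through 10.705 to 11.352 in cluster 1. Rnf43 ran from 5.637 through 6.237 to 6.788 in cluster 3, from 5.204 through 6.096 to 7.546 in cluster 2 and from 5.324 through 6.085 to 7.537 in cluster 1. The ranges overlap almost fully. For cluster 3 against 1, 3 against 2 and 2 against 1, limma called none of the 39 genes and 0% of all probe sets, and none of the 39 had an unadjusted p under 0.05. Differences ran from −0.07 to 0.07 for cluster 3 against 1, from −0.05 to 0.06 for 3 against 2 and from −0.04 to 0.01 for 2 against 1. The 95% intervals of all 39 genes lay within −0.417 and 0.370, within −0.382 and 0.371, and within −0.226 and 0.211 for the same comparisons.

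Those intervals carry a limit. Only 1, 1 and 4 of 28204 probe sets had an unadjusted p under 0.05 in the same order of comparisons, far fewer than 1 in 20, and no source used here records whether the values had been adjusted for cluster before deposit. For plate 2 against plate 1 none of the 39 genes was called by limma or had an unadjusted p under 0.05, and 0.0106% of probe sets were called. Differences ran from −0.12 for Wnt5b, at 6.360 ± 0.433 on plate 2 (SD, n = 22) and 6.473 ± 0.397 on plate 1 (SD, n = 93), to 0.08.

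**Figure D5:**
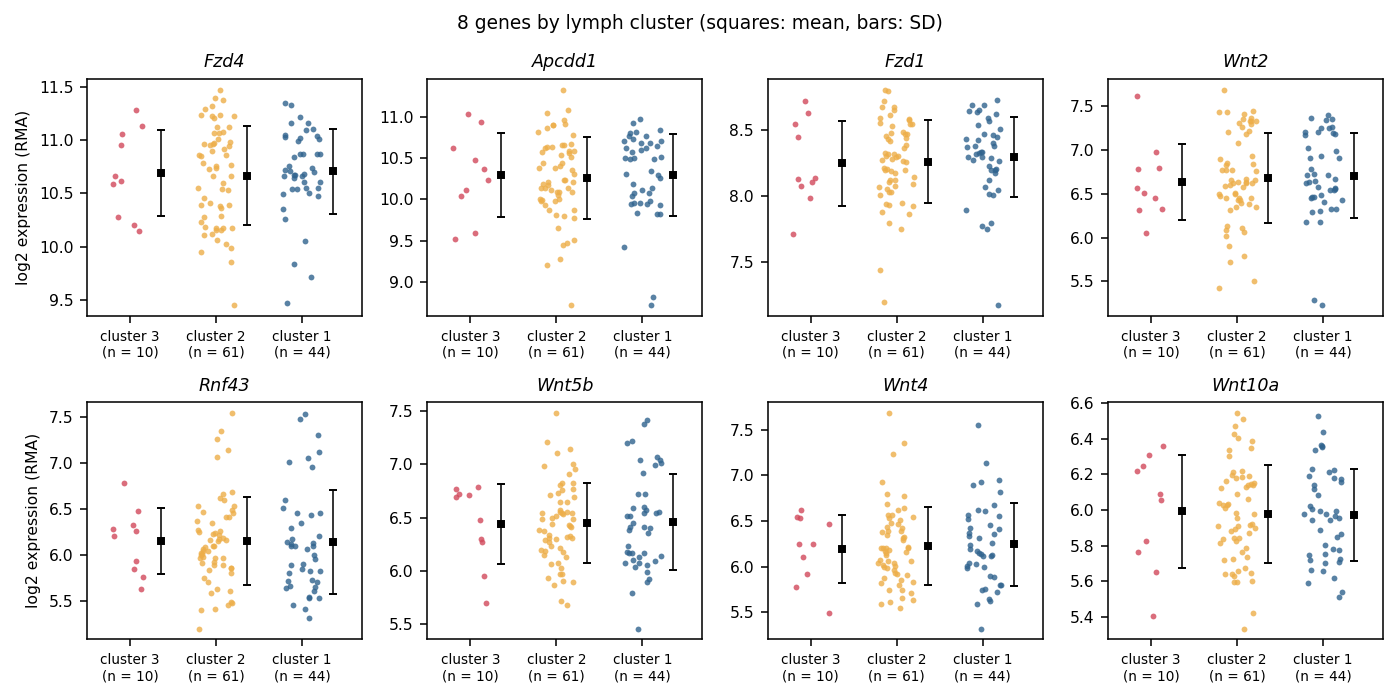
Log2 expression (y axes) of 8 genes by lymph cluster (x axes), 1 point per mouse, with squares at the mean and bars of 1 SD. Fzd4 had medians of 10.636, 10.734 and 10.705 in clusters 3, 2 and 1, and the points of the clusters overlap in all 8 panels.

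Other genes of the pathway were read from lists of related function, whose counts stand against the 18.5% of all probe sets that rose and 17.2% that fell with Hipk2, and the 12.7% and 15.3% on the luminal mean. The medians over all probe sets were −0.01 and −0.02. The 3 genes of Wnt export and lipidation hold Porcn, which attaches the lipid to Wnt proteins, and Wls, which carries them to the surface. With Hipk2 2 of the 3 rose, Porcn by 0.44 (SE 0.0529, adjusted p = 7.20e-12) and Wls by 0.16 (SE 0.05003, adjusted p = 0.00713), with a list median of 0.16. Of 6 secreted Wnt binders 1 rose and 2 fell: Sfrp5, an adipocyte product, rose by 1.77 (SE 0.28, adjusted p = 1.21e-07), Frzb fell by 0.84 (SE 0.23, adjusted p = 0.00156) and Wif1 by 0.36 (SE 0.14, adjusted p = 0.0322). On the luminal mean Sfrp5 fell by 0.77 and Wif1 rose by 0.41.

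The R-spondin list held the R-spondins and their Lgr receptors, which protect Frizzleds from Rnf43, and also Znrf3, the relative of Rnf43. Of its 8 genes 2 fell with Hipk2, Rspo1 by 0.79 (SE 0.23, adjusted p = 0.00415) and Lgr6 by 0.62 (SE 0.20, adjusted p = 0.00710). On the luminal mean 3 of the 8 rose and 2 fell, Lgr6 rising by 0.85 (adjusted p = 1.50e-24) and Rspo1 by 0.70 (adjusted p = 1.01e-08). Of 7 alternative Wnt receptors 2 rose and 3 fell with Hipk2, while 6 rose and none fell with the luminal mean, with a list median of 0.14 against −0.02 over all probe sets. Ptk7 and Celsr1, of the planar polarity pathway, rose on it by 0.54 (adjusted p = 7.52e-33) and 0.25 (adjusted p = 7.09e-07), and the receptor kinase Ror1, which binds Wnt5a, by 0.41 (adjusted p = 1.43e-22). The 4 Lrp inhibitors and Kremen genes held no limma call with Hipk2, and none at an unadjusted p under 0.05, and on the luminal mean 2 rose and 1 fell. Sostdc1, a secreted inhibitor, rose by 0.22 (adjusted p = 1.23e-04) and Kremen1, a Dickkopf receptor, by 0.06 (adjusted p = 0.0346), and Kremen2 fell by 0.07 (adjusted p = 0.00684).

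Inside the cell, 2 of 10 relay genes rose with Hipk2 and 1 fell. Gsk3b, a kinase that marks beta-catenin for destruction, rose by 0.21 (SE 0.03, adjusted p = 3.41e-08). Csnk1e rose by 0.23 (SE 0.0413, adjusted p = 1.71e-06) and Csnk1a1 fell by 0.19 (SE 0.0365, adjusted p = 1.05e-05). Of 10 TCF/LEF genes and co-factors 4 rose and 1 fell. Tcf7l1 rose by 0.46 (adjusted p = 2.25e-13), the beta-catenin inhibitor Ctnnbip1 by 0.53 (adjusted p = 6.66e-12) and the co-activator Bcl9l by 0.28 (adjusted p = 4.10e-07), and Lef1 fell by 0.75 (adjusted p = 7.03e-05). Of 8 common Wnt target genes 1 rose with Hipk2 and 3 fell: Nkd1 rose by 0.52 (adjusted p = 1.93e-06), Myc fell by 0.68 (adjusted p = 4.04e-06), Ccnd1 by 0.57 (adjusted p = 1.72e-05) and Tnfrsf19 by 0.44 (adjusted p = 1.13e-04). On the luminal mean 5 of the 8 rose, among them Myc and Ccnd1 by 0.44 each. Axin2, counted among the 39 genes, passed none of these tests.

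With both marker means held, some genes of these lists were called for the slope on Hipk2, all higher, against 7.52% of all probe sets. They were 3 of 10 relay genes, 1 of 10 TCF/LEF genes and co-factors and 1 of 8 genes of the R-spondin list. The rest were 1 of 4 Lrp inhibitors and Kremen genes and 1 of 8 targets. The export, secreted binder and alternative receptor lists held none by limma, with 1, 2 and 2 genes at an unadjusted p under 0.05. The relay genes were Dvl3, which passes the signal on from Frizzled, with 0.57 (SE 0.0944, adjusted p = 1.53e-05), Gsk3b with 0.27 (SE 0.0648, adjusted p = 0.00259) and Btrc, which marks beta-catenin for breakdown, with 0.26 (SE 0.0720, adjusted p = 0.0112). Bcl9l had 0.44 (SE 0.0901, adjusted p = 4.55e-04), Znrf3, the relative of Rnf43, 0.32 (SE 0.0943, adjusted p = 0.0204), Kremen1 0.28 (SE 0.0902, adjusted p = 0.0401) and the target Cd44 0.71 (SE 0.218, adjusted p = 0.0283). Dvl3, Btrc, Znrf3 and Cd44 are named after their values were seen.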

How the data were processed

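The deposited values are log2 expression values from the authors. The submitters' processing notes name RMA (robust multi-array average) and the package oligo, whose version is not given in the sources used here. RNA was extracted with Trizol and column clean-up, and biotin-labelled, per the labels' protocols. RMA is designed to set all arrays to a common distribution, so uniform shifts between mice may have been removed. The medians of the deposited arrays still ran from 6.162 to 6.4515, so array-wide differences remained in these values. Symbols came from the platform annotation, updated through the RefSeq gene table of GRCm38.p6. The number of arrays limits the precision.

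Models were fitted with limma 3.58.1 in R 4.3.3 on all 28204 probe sets, with lymph cluster and plate as factors and Benjamini-Hochberg adjustment, calls being an adjusted p under 0.05. Slopes left out the probe sets of their own predictor. Mixtures were fitted with mclust 6.1.1, correlations with numpy 2.4.6, and figures drawn with matplotlib 3.10.9. Each method was tested on simulated data. The genes and lists were chosen with earlier results of these data known. All 39 genes could be named; pairs were the 5 highest and 5 lowest correlations and neighbours, and pathway lists gave up to 4 genes by smallest p for the slope on Hipk2. P-values measure the spread between animals. Alternatives changed the plate term, the arrays used, the filter, the scaling, the weights, the moderation, the scale and the marker means held. Fits on fibroblast and muscle means, with basal or fibroblast means held, and without the 6 or 31 mice were added after seeing the data.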

Additional observations from a re-analysis of the deposited data

Results flagged for a closer look

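Dkk3 in lymph cluster 3 was flagged because 1 of its 10 mice lay far below the others: that mouse had a log2 value of 5.669 and the next one 6.164, a gap of 0.480 of the whole range of the cluster. The same reading was made for 49 measures in this cluster (the 39 genes, Hipk2 and 9 marker means), and chance flags about 1 in 20.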

How the results depend on the processing

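Counts of called genes stayed within 1.5 times their reported value in 115 of 132 settings. These include comparisons with 0 called genes in the reported fit, such as those of clusters and plates, where a repeated 0 counted as unchanged. For clusters and plates almost no probe set was called at all, so those settings say little about stability. For the slope on Hipk2 (15 called) the count was 4 on plate 2 alone, 9 in cluster 1 alone and 9 in cluster 2 alone. It was 8 without dim probe sets, where 14 of the 39 genes were tested, and 0 with the white adipocyte mean held. In the same order 3.26%, 17.3%, 31.3%, 58.1% and 8.1% of all probe sets tested were called, against 35.8% in the reported fit. For the luminal slope (15) the count was 5 on plate 2 alone, and for the adipocyte slope (16) 7 on plate 2 alone and 8 without dim probe sets. The shares of all probe sets tested were 2.41%, 6.38% and 66.2%. With both marker means held (0) the count was 2 on plate 1 alone, against 10.9% of all probe sets. For the difference in slope between clusters 2 and 1 (0) it was 1 with arrays centred on their medians, against 3.79%. For the fibroblast slope (15) the count was 3 on plate 2 alone and 9 in cluster 1 alone, against 2.84% and 22.2% of all probe sets. For the muscle slope (3) it was 1 on plate 1 alone, 0 in cluster 2 alone and 1 without dim probe sets. The shares of all probe sets tested were 3.33%, 2.86% and 17.4%. Called pairs (193) fell to 117 with cluster, plate and both marker means removed, and genes with 2 levels (0) numbered 1 at a share of 10%. Plate 2 and the single clusters hold fewer mice, and the fits without dim probe sets tested 14 of the 39 genes. For the other shifts the cause was not tested. Of 893 slopes of single genes refitted, 717 kept direction and call, 165 kept direction and lost the call, and 11 changed sign. On Hipk2 with the adipocyte mean held these were Fzd1 (−0.0099), Fzd7 (0.21), Rnf43 (0.28), Wnt4 (0.46) and Wnt5b (0.35), and with the luminal mean held Fzd7 (0.025). On the luminal mean with the adipocyte mean held it was Apcdd1 (0.093). On the adipocyte mean with the luminal mean held they were Dkk3 (0.035), Fzd6 (0.20) and Fzd7 (0.062), and on the fibroblast mean without the muscle-rich mice Fzd9 (0.017). The correlation of Fzd4 and Wnt5b became 0.037 with the marker means removed. None of these 12 was called in its changed form. Each gene had 1 probe set, so counting every probe set of a gene changes nothing. No paired analysis was possible because the labels give no replicate numbers shared by the groups.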

Other observations

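The highest values of 3 genes were set beside the marker means of the same mice. Wnt3, a ligand of skin and duct epithelium, had log2 values of 6.271 and 5.771 in its 2 highest mice and 5.422 in the next, with a median of 4.375. These mice ranked 1 and 2 of 115 in the basal epithelium marker mean, at 2.39 and 2.12, and 6 and 90 in the luminal mean. Wnt2b had 6.140 and 5.564 in its 2 highest mice and 5.198 in the next, with a median of 4.745, and these mice ranked 17 and 1 in the skeletal muscle mean. Fzd9 had 6.554 and 6.550 in its 2 highest mice, which ranked 3 and 1 in the muscle mean, 6.427 in the next and a median of 5.746, so these mice did not stand apart. The mixture models gave Wnt3 and Wnt2b gains of 21.1 and 20.7 with 2.36% and 1.73% of mice at the upper level.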
